A study of Mus musculus with 34 samples.

Results

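The 9 imprinted growth genes Dlk1, Mest, Peg3, Plagl1, Ndn, Peg10, Meg3, Cdkn1c and Grb10 were followed through mouse fetal lung with and without Lin28A. They were taken by gene symbol, and all 9 were among the 21789 genes of the deposited count tables and among the 18319 genes tested. An imprinted gene is transcribed mainly from the copy inherited from 1 parent. Of the members, 6 are known in mouse as paternally expressed, and 3 (Meg3, Cdkn1c and Grb10) as maternally expressed. As a class, imprinted genes act on fetal and placental growth, and many are abundant in fetal organs and decline as the organs mature. The reads were not assigned to a parental copy, so each value below is the summed level of both copies.

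The study collected embryonic lungs on embryonic days E12.5, E14.5, E16.5 and E18.5. Lin28A was made throughout the embryo (global), in lung epithelium, in lung mesenchyme, or not at all (control). Lin28A is an RNA-binding protein of early development that blocks the maturation of let-7 microRNAs. There were 3 global and 3 control libraries of E12.5, 4 global and 3 control libraries of E14.5, 3 of each of E16.5 and 5 of each of E18.5. Epithelial (3 libraries) and mesenchymal (2 libraries) lungs were collected on E18.5 alone. Doxycycline (1 g/L, in the water, starting on E0.5) is labelled for every group, controls included. The library titles carry the tags Vasa (global), Nkx2.1 (epithelial) and Wt1 (mesenchymal). The sources used here do not describe the alleles, the promoters that drive them or what the controls carry. The libraries are not stated to come from separate animals. Each p-value therefore rests on variation between libraries that may be technical and was estimated over all 10 groups together.

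Lin28a, the gene that was overexpressed, stood at 289 to 1300.5 CPM (read counts scaled to a common library total) in the 20 transgenic libraries and at 0.191 to 4.15 CPM in the 14 control libraries. Library totals ran from 7147301 to 17624884 counts, and the lowest count of any member in any library was 78. Markers of lung epithelium and mesenchyme were detected in every group, and neither list had a marker at 0 in any group. Some of the 34 libraries stood apart. E14.5 global library 4 held 506 CPM of kidney markers in sum, and E14.5 control library 3 held 356 CPM of thymus markers. At E12.5, the summed cardiomyocyte markers ran from 27.8 to 1491 CPM in global libraries, with the highest in library 1, and from 408 to 1788 CPM in control libraries, with 1788 and 1644 CPM in libraries 2 and 3. Control libraries 1 and 2 of E18.5 were the shallowest of their group, with 7147301 and 9414480 counts, and had the highest Dlk1 and Meg3 levels of all control libraries. They differed in more than depth, with TMM scaling factors of 0.872 and 0.882 beside 0.973 to 0.996 in controls 3 to 5. Calls that were lost or gained without these libraries are named with the results. In bulk lung RNA, fewer cells of a type and less RNA per cell cannot be told apart.

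The let-7 microRNAs, whose maturation Lin28A blocks, are shown first because their seed (bases 2 to 8, in capitals) was searched for in the members. The mature sequences are from RefSeq, build GRCm38.p6, written 5′ to 3′, and 9 let-7 names share the seed shown.
let-7a-5p: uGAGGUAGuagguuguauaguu
let-7d-5p: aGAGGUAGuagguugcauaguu
let-7g-5p: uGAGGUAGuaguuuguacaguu
The letters CTACCTC, which pair with this seed, were looked for on the transcript strand of the longest annotated 3′ UTR (GENCODE M21). Of the 8 protein-coding members, Peg3 alone held them, against 10.1% of 16251 genes with an annotated 3′ UTR. The Peg3 match began at base 616 of a 3′ UTR of 3614 bases (chr7:6706883-6706905, minus strand, GRCm38), with the pairing letters in capitals.
Peg3 3′ UTR: ggagtgttctgtcccCTACCTCt
The promoter windows of Meg3 and Peg3 (RefSeq, GRCm38.p6, 300 bases each) are shown because both hold the palindrome TGACGTCA, in capitals, the letters of a cAMP response element. The Meg3 window lies at chr12:109540746-109541045 on the plus strand and the element began 57 bases before the transcript start. The Peg3 window lies at chr7:6730370-6730669 on the minus strand and the element began 178 bases before the start.
Meg3 promoter: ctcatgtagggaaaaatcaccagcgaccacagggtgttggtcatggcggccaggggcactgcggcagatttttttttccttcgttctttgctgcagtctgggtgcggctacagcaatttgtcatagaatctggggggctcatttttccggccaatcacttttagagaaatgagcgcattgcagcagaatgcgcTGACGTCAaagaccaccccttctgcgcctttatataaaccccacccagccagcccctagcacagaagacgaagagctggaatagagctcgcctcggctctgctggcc
Peg3 promoter: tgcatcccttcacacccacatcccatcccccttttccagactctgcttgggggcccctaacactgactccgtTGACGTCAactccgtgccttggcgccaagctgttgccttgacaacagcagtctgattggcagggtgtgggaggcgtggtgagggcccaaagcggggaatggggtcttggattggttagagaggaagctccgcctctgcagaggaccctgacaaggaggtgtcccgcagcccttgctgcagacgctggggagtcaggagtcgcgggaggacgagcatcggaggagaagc
The element was searched on both strands after these windows had been looked at. It was found for 2 of the 7 members with a promoter entry (11 promoters), and in 1.79% of 32851 promoters of the same length. The letters GGGGCCCC, an element bound by the Plagl1 protein, were found for Peg3 alone, against 1.08% of all promoters. TATAAA was found for Meg3 alone, against 13.6% of all promoters. Cdkn1c and Peg10 had no promoter entry. A match is a description of the letters and not a site of binding.

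Levels of different genes were compared per length, as RPKM over the union of annotated exons. In E12.5 control lungs the order was Cdkn1c (258 RPKM), Mest (241), Grb10 (218), Plagl1 (132), Dlk1 (115), Peg3 (70.2), Ndn (36.5), Meg3 (31.7) and Peg10 (27.8). Per the longest annotated transcript instead, Grb10 (392 RPKM) and Mest (357 RPKM) came before Cdkn1c in these lungs. In E18.5 control lungs Dlk1 led with 392 RPKM, before Mest with 252 RPKM, and Peg10 was last with 2.22 RPKM. In E18.5 global lungs Cdkn1c led with 277 RPKM, before Mest with 207 and Grb10 with 198 RPKM. Per the longest annotated transcript, Grb10 and Mest came before Cdkn1c there too, so the lead of Cdkn1c depends on the length used. Per exon union, Dlk1 stood at 128 RPKM in the same global lungs. The members together made up 0.608% ± 0.0218 of the counts in E18.5 global libraries and 0.687% ± 0.103 in E18.5 control libraries (SD, n = 5 each). The groups overlapped, from 0.578% to 0.632% in global and from 0.574% to 0.834% in control libraries, with medians of 0.616% and 0.646%. The shallow controls 1 and 2 had the highest shares.

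**Figure D1:**
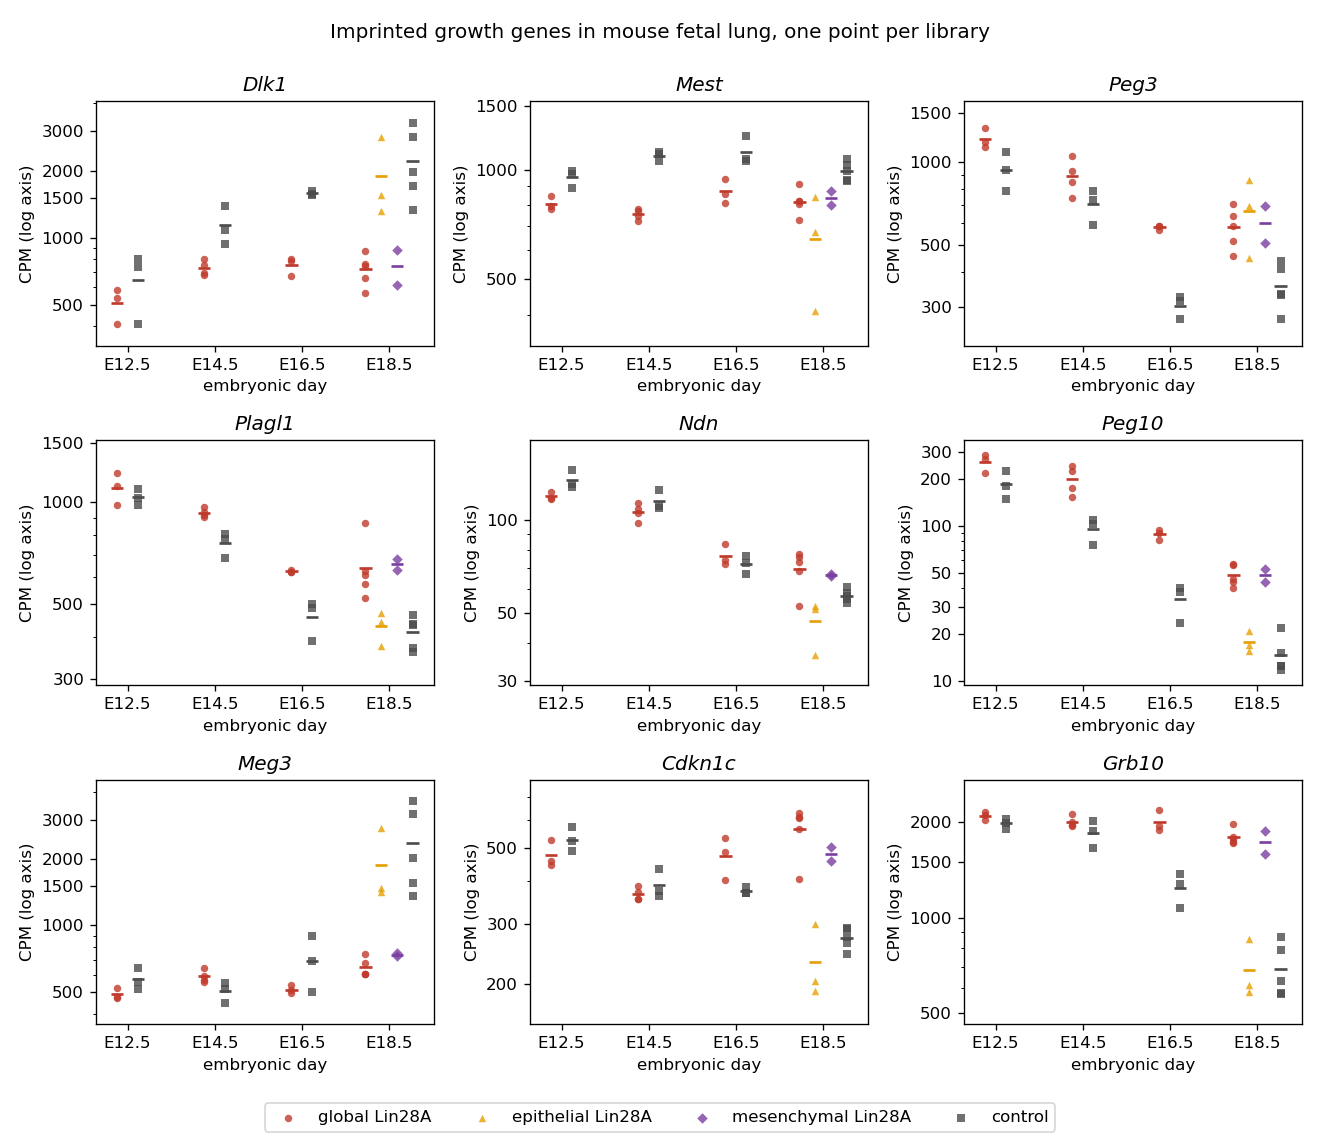
Level of each member in every library (CPM, log axis) by embryonic day, with global Lin28A left of control and, at E18.5, global, epithelial, mesenchymal and control from left to right. Points are libraries and short lines are group means. In control lungs Dlk1 is higher at each later day by its mean and Meg3 is high at E18.5 alone, while no global library exceeds 869 CPM in either gene, and Grb10 and Peg10 are higher in every E18.5 global library than in any E18.5 control library.

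By E18.5 the global Lin28A lungs differed from control lungs in all 9 members. Peg10 (3.22-fold), Grb10 (2.61-fold), Cdkn1c (2.07-fold), Peg3 (1.63-fold), Plagl1 (1.55-fold) and Ndn (1.22-fold) were higher. Meg3 (3.63-fold), Dlk1 (3.07-fold) and Mest (1.21-fold) were lower. A call is an adjusted p under 0.05 from edgeR's quasi-likelihood test with Benjamini-Hochberg adjustment over all genes, and folds are log2 values ± SE below unless said otherwise. This comparison called 64.8% of all genes tested, 32.1% higher and 32.7% lower, and the members' count of 6 higher and 3 lower is to be read against that background. The median log2 fold was 0.63 over the members and -0.01 over all genes tested. With E18.5 controls 1 and 2 left out, all 9 members were again called, with log2 folds of 1.55 for Peg10, 1.26 for Grb10, 1.02 for Cdkn1c, 0.55 for Peg3, 0.51 for Plagl1, 0.29 for Ndn and -0.35 for Mest.

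Several marker lists of other cells moved in the same comparison. Cycling-cell markers were higher in 5 of 5, summing to 1448 to 1904 CPM in global and 338 to 776 CPM in control libraries. Smooth muscle markers were higher in 4 of 5 (960.2 to 1096 CPM against 444 to 557 CPM). Mesenchyme markers were lower in 5 of 8 (3673 to 5113 CPM in global and 7037 to 10218 CPM in control libraries). Every tested endothelial (6), pericyte (5), leukocyte (5) and mesothelial (4) marker was lower in global lungs. Epithelial markers were lower in 4 of 7 and higher in 2, and their sum ran from 1745 to 4186 CPM in global and from 12535 to 18295 CPM in control libraries. Cardiomyocyte markers were lower in 7 of 7 (65.9 to 117 CPM against 202 to 771 CPM). No marker of these lists was at 0 in either group, and their part in the members' differences was not tested.

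Among the paternally expressed members, Dlk1 encodes a transmembrane Delta-like protein, also shed into the circulation, that keeps precursor cells such as preadipocytes undifferentiated. At E18.5 Dlk1 (ENSMUSG00000040856, chr12:109452823-109463336, plus strand) was at 869, 750.5, 762, 663 and 567.7 CPM in the 5 global libraries. The 5 control libraries had 2816, 3277, 1698, 1979.7 and 1325 CPM. The groups did not overlap, and the highest global library lay far below the lowest control library. The log2 fold was -1.62 ± 0.22 (adjusted p = 1.43e-07, edgeR), and without controls 1 and 2 it was -1.22 (adjusted p = 1.08e-05, edgeR). From E12.5 to E18.5 the global means were 510.0, 734, 754 and 723 CPM and the control means were 649, 1139, 1582 and 2219 CPM. The control mean was higher at each later day, while the global means from E14.5 on lay close together. Dlk1 was already lower in global lungs at E16.5, where 3 global libraries had 670.1, 789 and 804 CPM against 1619, 1578 and 1549 CPM in controls (-1.07 ± 0.27, adjusted p = 0.00267, edgeR). At E14.5 its fold was -0.63 ± 0.25 with an adjusted p of 0.0975 (edgeR), although every global library lay under every control library there.

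Mest encodes a protein of the alpha/beta hydrolase fold whose loss from the paternal copy slows fetal growth in mouse. In E18.5 global libraries Mest (ENSMUSG00000051855, chr6:30723547-30748465, plus strand) had 803, 822, 822, 729.6 and 912 CPM, against 933, 937, 1030.2, 992 and 1069 CPM in controls. The groups did not overlap, but the highest global library came close to the lowest control library. The log2 fold was -0.28 ± 0.11 (adjusted p = 0.0242, edgeR), and the call was lost without control 5 (-0.25) or without global 4 (-0.24). Of the 4 days, the largest Mest difference was at E14.5 (-0.53 ± 0.13, adjusted p = 0.00573, edgeR). There the 4 global libraries had 747, 769, 779 and 725 CPM and the 3 control libraries had 1059, 1119 and 1102 CPM, with no overlap. Without global library 4 and control library 3, which carried kidney and thymus transcripts, the E14.5 fold was -0.51 with an adjusted p of 0.0733 (edgeR). That fit also left out E12.5 global library 1 but neither of the E12.5 control libraries with as many cardiomyocyte transcripts, and E12.5 libraries enter the E14.5 fold through scaling, the gene filter and the shared spread. At E16.5 the fold was -0.36 ± 0.14 (adjusted p = 0.0406, edgeR), a call lost without control 1, control 2, global 1 or global 3 (-0.29, -0.39, -0.31 and -0.35). Mest shares 912 exon bases with Copg2 on the opposite strand, and since the strand of counting is not given, reads there cannot be told apart. Copg2 held 34862 counts over all libraries and Mest 381212.

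Peg3 encodes a large zinc-finger protein linked to fetal growth and maternal behaviour in mouse. At E18.5 Peg3 (ENSMUSG00000002265, chr7:6703892-6730431, minus strand) had 457, 519.8, 639, 589 and 708 CPM in global libraries and 272, 329.8, 412, 438 and 333 CPM in controls. The lowest global library was above the highest control library, by a small margin. The fold was 0.71 ± 0.15 (adjusted p = 1.38e-04, edgeR). The separation was wider at E16.5, with 589, 567 and 585 CPM in global and 325, 270.4 and 314 CPM in control libraries (0.94 ± 0.19, adjusted p = 3.04e-04, edgeR). At E12.5 and E14.5 the folds were 0.37 ± 0.19 and 0.35 ± 0.18, with adjusted p of 0.553 and 0.224 (edgeR).

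Plagl1 encodes a zinc-finger transcription factor that acts on other imprinted genes, Igf2 and Cdkn1c among them, in mouse. At E18.5 Plagl1 (ENSMUSG00000019817, chr10:13060504-13131694, plus strand) had 520.3, 573, 627, 609 and 865 CPM in global libraries, against 370.0, 359.9, 436, 434 and 465.6 CPM in controls. All global libraries were higher than all controls, and global library 5 was above the other 4. The fold was 0.63 ± 0.10 (adjusted p = 4.99e-06, edgeR). At E16.5 the 3 global libraries lay close together (621, 629 and 624 CPM), against 486, 389 and 499 CPM in controls. That fold was 0.45 ± 0.13 (adjusted p = 0.0091, edgeR), and without control 2, the lowest library, it was 0.34 with an adjusted p of 0.0776 (edgeR). At E14.5 the fold was 0.30 ± 0.13 (adjusted p = 0.117, edgeR).

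Ndn encodes necdin, a MAGE-family protein that binds E2F factors and restrains the cell cycle in neurons. The E18.5 levels of Ndn (ENSMUSG00000033585, chr7:62346569-62350262, plus strand) were 52.6, 73.2, 68.6, 75.7 and 77.7 CPM in global and 60.9, 53.8, 58.0, 55.5 and 56.7 CPM in control libraries. Global library 1 lay under all controls and the other 4 lay over them. The fold was 0.29 ± 0.09 (adjusted p = 0.00627, edgeR), the smallest of the higher members. On earlier days Ndn had folds of -0.17 ± 0.11 at E12.5, -0.11 ± 0.11 at E14.5 and 0.09 ± 0.12 at E16.5, none called by edgeR (lowest adjusted p = 0.554).

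Peg10 encodes a retrotransposon-derived protein that the mouse placenta requires. It was the member with the largest rise in global lungs, and with Mest the first to be called. At E18.5 Peg10 (ENSMUSG00000092035, chr6:4747306-4760517, plus strand) had 39.6, 56.0, 45.2, 43.5 and 56.5 CPM in global libraries and 12.51, 12.52, 11.8, 21.98 and 15.3 CPM in controls. All global libraries were higher than all controls (1.69 ± 0.18, adjusted p = 1.71e-09, edgeR). At E14.5 the 4 global libraries had 176, 154, 225 and 243 CPM and the 3 controls had 108, 103 and 75.7 CPM (1.06 ± 0.20, adjusted p = 5.55e-04, edgeR). In the fit without E14.5 global 4, E14.5 control 3 and E12.5 global 1 the E14.5 fold was 0.81 (adjusted p = 0.0425, edgeR). The groups were separate with all libraries, as they were at E16.5, where global libraries had 93.5, 81.5 and 90.3 CPM and controls 37.4, 23.9 and 39.9 CPM. The E16.5 fold was 1.39 ± 0.21 (adjusted p = 8.60e-06, edgeR). At E12.5 it was 0.47 ± 0.20 with an adjusted p of 0.47 (edgeR), and the groups overlapped. The level itself fell with age in both genotypes, to global means of 257, 199.5, 88.4 and 48.2 CPM and control means of 185.4, 95.5, 33.7 and 14.8 CPM at the 4 days.

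Among the maternally expressed members, Meg3 is a long noncoding RNA of the same cluster as Dlk1. At E18.5 Meg3 (ENSMUSG00000021268, chr12:109541001-109571726, plus strand) had 744, 679, 605, 606 and 604 CPM in the global libraries. The 5 controls had 3193, 3645, 2015, 1358 and 1549 CPM. The groups were far apart, and the controls were spread more widely than the global libraries. The fold was -1.86 ± 0.21 (adjusted p = 5.09e-09, edgeR), and without the shallow controls 1 and 2, which were the highest, it was -1.35 (adjusted p = 8.47e-08, edgeR). On the 3 earlier days Meg3 was not called, with folds of -0.23 ± 0.26, 0.22 ± 0.24 and -0.43 ± 0.26 (edgeR, lowest adjusted p = 0.199). Global means over the 4 days were 489, 588, 513 and 648 CPM, against 573, 503, 693 and 2352 CPM in controls. The control mean was high at E18.5 alone, and the global means lay in a narrow band.

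Cdkn1c encodes p57, an inhibitor of cyclin-dependent kinases that restrains fetal growth and is used as cells leave the cycle. Cdkn1c (ENSMUSG00000037664, chr7:143458339-143461050, minus strand) had 608, 565, 612, 630.1 and 406 CPM in E18.5 global libraries and 275, 263, 245, 290.1 and 293 CPM in controls. All global libraries were higher, and library 5 was below the other 4. The fold was 1.05 ± 0.11 (adjusted p = 1.98e-09, edgeR). At E16.5 the global libraries had 402, 534 and 484 CPM and the controls 369.7, 369 and 385 CPM. These did not overlap, but the fold of 0.34 ± 0.14 was not called (adjusted p = 0.0604, edgeR). It was called without global library 1, the lowest of the 3 (0.44, adjusted p = 0.028, edgeR). At E12.5 and E14.5 the folds were -0.15 ± 0.14 and -0.09 ± 0.13.

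Grb10 encodes an adaptor protein that binds the insulin and insulin-like growth factor receptors and limits fetal growth in mouse. Grb10 (ENSMUSG00000020176, chr11:11930508-12038683, minus strand) had 1739, 1977, 1792, 1724 and 1768 CPM in E18.5 global libraries. The controls had 633, 578, 575, 868 and 791 CPM. The global libraries lay close together, and all were over all controls. The fold was 1.39 ± 0.11 (adjusted p = 6.17e-12, edgeR). At E16.5 the global libraries had 2182, 1944 and 1887 CPM and the controls 1371, 1074 and 1279.8 CPM (0.69 ± 0.14, adjusted p = 2.33e-04, edgeR). At E12.5 and E14.5 the folds were 0.08 ± 0.14 and 0.12 ± 0.13, with adjusted p of 0.923 and 0.618 (edgeR).

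The differences were few at the early days and more numerous later. At E12.5 edgeR called none of the 9 members, DESeq2 also called 0, and 1 (Peg10) had an unadjusted p under 0.05. That comparison called 0.229% of all genes. At E14.5 Peg10 was called higher (4.44% of all genes were) and Mest lower (8.43% of all genes were). At E16.5 there were 4 members higher (Peg10, Peg3, Grb10 and Plagl1; 17.0% of all genes) and 2 lower (Dlk1 and Mest; 20.1% of all genes). The members' median log2 fold was -0.15 at E12.5, 0.12 at E14.5 and 0.34 at E16.5, beside medians over all genes of -0.0016, -0.04 and -0.01. At E14.5, endothelial markers were lower in 6 of 6 (588 to 757 CPM in sum in global and 986 to 1072 CPM in control libraries). At E16.5 they were lower in 6 of 6 (989 to 1079 CPM against 1583 to 1872 CPM), and smooth muscle markers were higher in 4 of 5 (1151 to 1224 CPM against 641 to 826 CPM). Cycling-cell markers at E16.5 were higher in 1 of 5. The part of these lists in the members' differences was not tested.

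**Figure D2:**
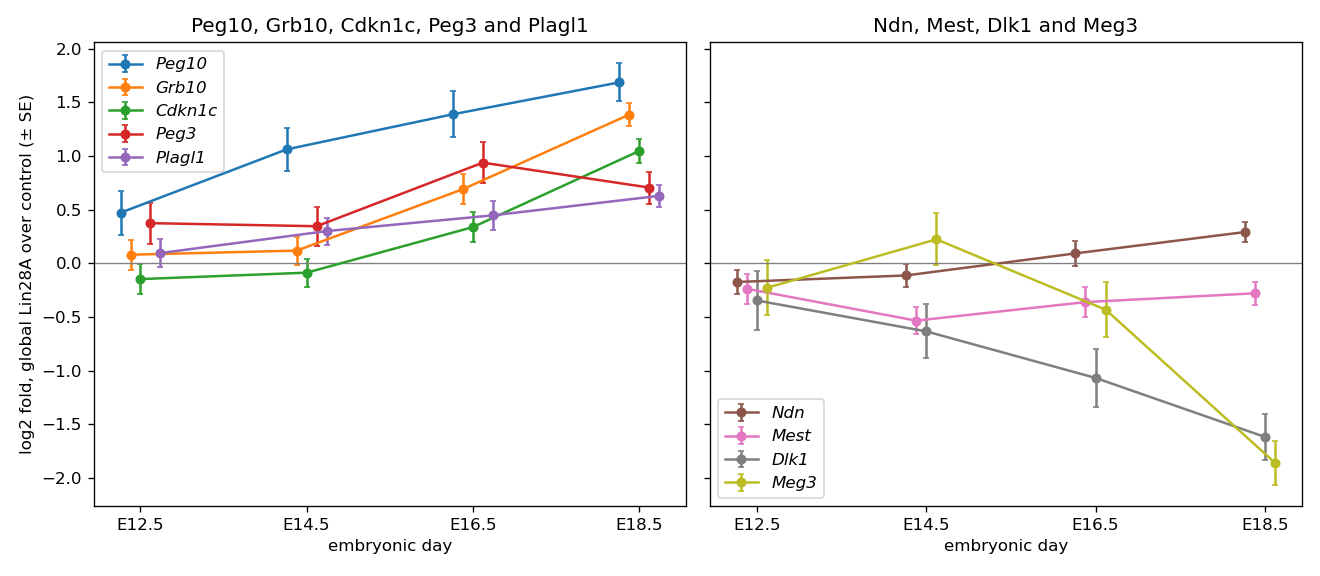
Log2 fold of global Lin28A over control lungs (± SE) at each day, with Peg10, Grb10, Cdkn1c, Peg3 and Plagl1 on the left and Ndn, Mest, Dlk1 and Meg3 on the right. Points are the 4 same-day comparisons. Peg10 reaches 1.69 and Meg3 -1.86 at E18.5, and no member is called at E12.5.

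Whether the global effect itself changed between successive days was tested as an interaction. Between E16.5 and E18.5 it changed for 3 members, where 10.7% of all genes were called. The Meg3 effect fell by 1.43 ± 0.33 on the log2 scale (adjusted p = 0.00502, edgeR), and without E18.5 controls 1 and 2 the change was -0.94 (adjusted p = 0.0278, edgeR). The Cdkn1c effect rose by 0.71 ± 0.18 (adjusted p = 0.00992, edgeR). The Grb10 effect rose by 0.69 ± 0.18 (adjusted p = 0.00998, edgeR), but without the same 2 controls it was 0.56 with an adjusted p of 0.0651 (edgeR). For Dlk1 the change over this interval was -0.55 ± 0.34 (95% interval -1.26 to 0.16) and was not called. Between E12.5 and E14.5 edgeR and DESeq2 each called 0 members, and 1 (Peg10) had an unadjusted p under 0.05; 0.0437% of all genes were called. Between E14.5 and E16.5 edgeR called 0 members, with 3 at an unadjusted p under 0.05 (Grb10, Peg3 and Cdkn1c), and DESeq2 called 1 (Grb10); 7.87% of all genes were called. Grb10 was also called there by edgeR without E14.5 control 3 (0.65).

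The course in control lungs gives the scale for these differences. From E12.5 to E18.5 the control mean of Peg10 dropped 12.52-fold, that of Grb10 2.88-fold, of Peg3 2.62-fold, of Plagl1 2.50-fold, of Ndn 2.37-fold and of Cdkn1c 1.93-fold. Over the same days the control mean of Meg3 went up 4.11-fold and that of Dlk1 3.42-fold (2.86-fold and 2.57-fold without E18.5 controls 1 and 2), and Mest ended at 1.04 of its first level. These whole-span ratios are means without a test, and the steps between neighbouring days were tested.

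From E12.5 to E14.5 Dlk1 rose and Peg10, Plagl1 and Cdkn1c fell in control lungs, beside 11.3% of all genes higher and 5.44% lower. Peg10 dropped to 95.5 ± 17.4 CPM at E14.5, against 185.4 ± 38.2 CPM at E12.5 (SD, n = 3 each; -0.96 ± 0.21, adjusted p = 0.00147, edgeR). The other 3 calls were each lost without single libraries. Dlk1 (0.81 ± 0.27) was not called without E12.5 control 1 or 3 or E14.5 control 1 or 2, where its fold ran from 0.57 to 0.91. Plagl1 (-0.45 ± 0.13) was not called without E12.5 control 2 (-0.41) or E14.5 control 3 (-0.39). Cdkn1c (-0.43 ± 0.14) was not called without E12.5 control 1 or 2 or E14.5 control 2 or 3, with folds from -0.44 to -0.37. In the fit without E14.5 global 4, E14.5 control 3 and E12.5 global 1, Dlk1 (0.93) and Peg10 (-0.82) were called, and Plagl1 and Cdkn1c were not. E12.5 controls 2 and 3, the libraries highest in cardiomyocyte markers, stayed in that fit. They and E12.5 global 1 were left out in a setting chosen after the data were seen, which leaves 1 E12.5 control, assumed to vary like the other groups. There Peg10 was called (-1.24, adjusted p = 0.00757, edgeR), and Dlk1 (0.63), Plagl1 (-0.37) and Cdkn1c (-0.41) were not.

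The step from E14.5 to E16.5 was the one in which most members fell in control lungs, 5 of 9 against 17.8% of all genes, with 0 higher (18.1% of all genes), and also 0 higher at an unadjusted p under 0.05. Peg10 (-1.50 ± 0.21), Peg3 (-1.21 ± 0.19), Plagl1 (-0.72 ± 0.13), Ndn (-0.68 ± 0.12) and Grb10 (-0.58 ± 0.14) fell, with adjusted p from 4.69e-06 to 0.00174 (edgeR). These 5 calls held without each library in turn. From E16.5 to E18.5 Peg10 (-1.17 ± 0.20), Grb10 (-0.85 ± 0.12), Cdkn1c (-0.46 ± 0.12) and Ndn (-0.34 ± 0.10) fell in control lungs and Meg3 rose (1.76 ± 0.25, adjusted p = 2.62e-06, edgeR; the highest p of the 5 was 0.0119), beside 19.1% of all genes lower and 17.1% higher. Ndn was not called without E16.5 control 1 (-0.29). Dlk1 was at 0.49 ± 0.25 (adjusted p = 0.123, edgeR) and was called without E18.5 control 5, the lowest of its group (0.63). Without the shallow E18.5 controls 1 and 2, the Meg3 step was 1.25 (adjusted p = 2.61e-05, edgeR) and the Dlk1 step 0.07 (adjusted p = 0.847, edgeR). These steps share the control libraries of the comparisons with global lungs.

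The same steps were tested in global Lin28A lungs, and the difference between genotypes is given by the interactions above. From E12.5 to E14.5 edgeR and DESeq2 each called 0 members, with 2 (Cdkn1c and Peg3) at an unadjusted p under 0.05, beside 4.62% of all genes called. From E14.5 to E16.5 Peg10 (-1.17 ± 0.20), Plagl1 (-0.58 ± 0.13), Ndn (-0.48 ± 0.11) and Peg3 (-0.62 ± 0.18) fell, beside 2.67% of all genes, and 0 rose (3.93%), with Cdkn1c alone higher at an unadjusted p under 0.05. Peg3 (adjusted p = 0.0337, edgeR) was not called without E14.5 global 3 or 4, or without any of the 3 E16.5 global libraries, with folds from -0.63 to -0.53, nor in the fit without E14.5 global 4, E14.5 control 3 and E12.5 global 1 (-0.53). Over that step the Grb10 fold was -0.0025 (95% interval -0.27 to 0.26) and the Dlk1 fold was 0.04 ± 0.25 (-0.48 to 0.56). From E16.5 to E18.5 Peg10 alone fell (-0.88 ± 0.18, adjusted p = 0.00576, edgeR; 1.86% of all genes lower), and not without E16.5 global 1 (-0.83). Meg3 moved by 0.33 ± 0.23 (95% interval -0.15 to 0.82) over those 2 days.

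Global lungs were also set against the control lungs collected 2 days earlier. At E14.5 global lungs differed from E12.5 controls in Cdkn1c alone, which was lower (-0.52 ± 0.13, adjusted p = 0.0297, edgeR; 0.502% of all genes lower). That call was lost without E12.5 control 2 or 3 or without E14.5 global 1, 2 or 3, with folds from -0.57 to -0.46, and without E12.5 controls 2 and 3 and E12.5 global 1 together (-0.50). At E16.5 global lungs differed from E14.5 controls in Ndn alone, which was lower (-0.59 ± 0.12, adjusted p = 0.00218, edgeR; 3.83% of all genes lower). At E18.5 global lungs differed from E16.5 controls in 7 members, 5 higher and 2 lower, beside 15.7% and 18.1% of all genes. Peg3 (0.94 ± 0.18), Cdkn1c (0.59 ± 0.13), Grb10 (0.54 ± 0.13), Peg10 (0.51 ± 0.19) and Plagl1 (0.48 ± 0.12) were higher, and Dlk1 (-1.13 ± 0.24) and Mest (-0.45 ± 0.12) were lower, with adjusted p from 1.58e-04 to 0.0413 (edgeR). Peg10 was not called without E16.5 control 1 or 2 or E18.5 global 2 or 5, with folds from 0.32 to 0.59. As a description over the 9 members, the mean absolute log2 difference of group means was smallest between E14.5 global and E12.5 control (0.200), between E16.5 global and E14.5 control (0.284), and between E18.5 global and E14.5 control (0.473). To the controls of their own day these distances were 0.378, 0.640 and 1.04.

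At E18.5 the members differed between the epithelial and the mesenchymal lungs. With Lin28A in mesenchyme, 7 members differed from controls, with Peg10, Grb10, Cdkn1c, Peg3 and Plagl1 higher and Meg3 and Dlk1 lower. With Lin28A in epithelium, 3 differed, with Peg3 higher and Mest and Ndn lower. The backgrounds were 27.4% of all genes higher and 26.9% lower in mesenchymal lungs, and 18.0% and 15.2% in epithelial lungs. The members' median log2 fold was 0.66 in mesenchymal and -0.23 in epithelial lungs, beside -0.02 in each over all genes. The 3 Lin28A groups share 1 set of control libraries, so their folds over controls are given side by side and the groups were then compared directly.

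**Figure D3:**
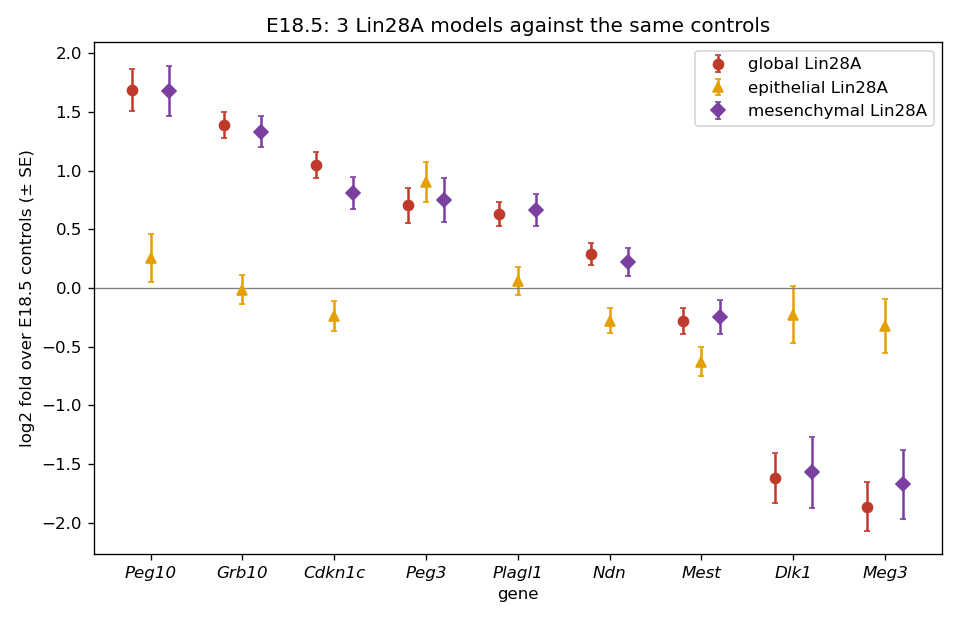
Log2 fold over the same 5 E18.5 control libraries (± SE) for each member in global, epithelial and mesenchymal Lin28A lungs. Mesenchymal and global points differ by at most 0.24, and the epithelial points of Peg10, Grb10, Cdkn1c, Dlk1 and Meg3 lie between -0.32 and 0.26.

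In the mesenchymal libraries Peg10 had 43.3 and 52.6 CPM (1.68 ± 0.21) and Grb10 had 1587 and 1883 CPM (1.33 ± 0.13). Cdkn1c had 502 and 456 CPM (0.81 ± 0.14) and Plagl1 had 629 and 681 CPM (0.66 ± 0.13). All 4 genes lay above every control library in both mesenchymal libraries, with adjusted p from 2.95e-09 to 1.13e-04 (edgeR). With 2 mesenchymal libraries, all 9 members were apart from the controls, Ndn and Mest included, so this separation does not set any member apart. The share of all genes apart in this way is not given here, so that count cannot be read as a trait of the members. Dlk1 had 883 and 612 CPM (-1.57 ± 0.30, adjusted p = 7.51e-05, edgeR) and Meg3 had 752 and 724 CPM (-1.67 ± 0.29, adjusted p = 1.83e-05, edgeR). Both lay below every control library. Peg3, at 509 and 692 CPM, was called (0.75 ± 0.19, adjusted p = 0.00142, edgeR), but not without mesenchymal library 2 (0.53, adjusted p = 0.0981, edgeR). Ndn (0.22 ± 0.12) and Mest (-0.25 ± 0.14) were not called. Without the shallow controls 1 and 2 the same number of members, 7, was called, with Dlk1 at -1.18 and Meg3 at -1.17. Cycling-cell markers summed to 1592 to 1620.0 CPM in the mesenchymal libraries, beside 338 to 776 CPM in the control libraries. Mesothelial markers, Wt1 among them, summed to 70.0 to 89.7 CPM beside 499 to 928 CPM. The part of these lists in the members' differences was not tested.

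In the epithelial libraries Peg3 had 862, 450.5 and 691 CPM, all above the controls (0.90 ± 0.17, adjusted p = 1.19e-04, edgeR). Mest had 676, 844 and 409.9 CPM, all below the controls and widely spread (-0.63 ± 0.13, adjusted p = 3.23e-04, edgeR). Without epithelial library 3, the lowest, the Mest fold was -0.38. Ndn had 51.6, 52.9 and 36.4 CPM (-0.28 ± 0.11, adjusted p = 0.0448, edgeR). The Ndn call was lost without epithelial 3 (-0.12), without control 1, 3, 4 or 5 (-0.29 to -0.26), and without the shallow controls together (-0.28). Dlk1 had 2823, 1548 and 1313 CPM and overlapped the controls. Its fold was -0.23 ± 0.24 (95% interval -0.73 to 0.28), and it changed sign, to 0.17, without the shallow controls. Meg3 had 2762, 1409 and 1470.2 CPM, with a fold of -0.32 ± 0.23 (-0.80 to 0.16). Without the shallow controls the Meg3 fold was 0.18, and without epithelial library 1, the highest, it was -0.71 and called (adjusted p = 0.037, edgeR). The direction of Meg3 and Dlk1 in epithelial lungs differed with the libraries kept. Peg10, Plagl1 and Grb10 had intervals of -0.17 to 0.68, -0.19 to 0.30 and -0.27 to 0.24, and Cdkn1c stood at -0.24 ± 0.13. Cdkn1c was called lower without epithelial library 2, the highest (-0.46, adjusted p = 0.0052, edgeR). Cycling-cell markers summed to 449.8 to 631 CPM in these libraries, within the range of the controls, and mesenchyme markers were lower in 3 of 8 and epithelial markers higher in 5 of 7. Their part in the members' differences was not tested.

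Compared directly, global and epithelial lungs differed in 8 members, 6 higher and 2 lower in global, beside 31.3% and 31.8% of all genes. Peg10 (1.43 ± 0.21), Grb10 (1.40 ± 0.13), Cdkn1c (1.28 ± 0.13), Plagl1 (0.57 ± 0.12) and Ndn (0.57 ± 0.11) were higher in global lungs, with adjusted p from 2.82e-10 to 1.70e-04 (edgeR). Meg3 (-1.54 ± 0.23) and Dlk1 (-1.39 ± 0.24) were lower, with adjusted p of 9.03e-07 and 9.04e-06 (edgeR). Mest was higher (0.35 ± 0.13, adjusted p = 0.018, edgeR), with 0.10 and no call without epithelial 3 and 0.59 without epithelial 2. Peg3 was the member not called (-0.20 ± 0.17, 95% interval -0.55 to 0.15), and without epithelial 2 it was called lower in global lungs (-0.41). Epithelial and mesenchymal lungs also differed in 8 members, 2 higher and 6 lower in epithelial, beside 26.5% and 26.8% of all genes. Meg3 (1.35 ± 0.30) and Dlk1 (1.34 ± 0.32) were higher in epithelial lungs. Peg10 (-1.42 ± 0.24), Grb10 (-1.35 ± 0.15), Cdkn1c (-1.05 ± 0.16), Plagl1 (-0.61 ± 0.15), Ndn (-0.50 ± 0.13) and Mest (-0.38 ± 0.15) were lower there, with adjusted p over the 8 from 2.79e-08 to 0.0392 (edgeR). Peg3 stood at 0.15 ± 0.21 (95% interval -0.29 to 0.60). Mest was not called without epithelial 3 (-0.14), mesenchymal 1 (-0.32) or mesenchymal 2 (-0.44), and was -0.62 without epithelial 2.

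Between global and mesenchymal lungs edgeR and DESeq2 each called 0 members, 0 had an unadjusted p under 0.05, and 0.0218% of all genes were called. The largest difference was that of Cdkn1c (0.24 ± 0.15, 95% interval -0.06 to 0.54). The intervals were -0.24 to 0.35 for Grb10, -0.44 to 0.46 for Peg10, -0.62 to 0.52 for Dlk1 and -0.73 to 0.35 for Meg3. With 2 mesenchymal libraries, differences inside these intervals were not excluded, and the missing calls do not show that the lungs were alike.

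**Figure D4:**
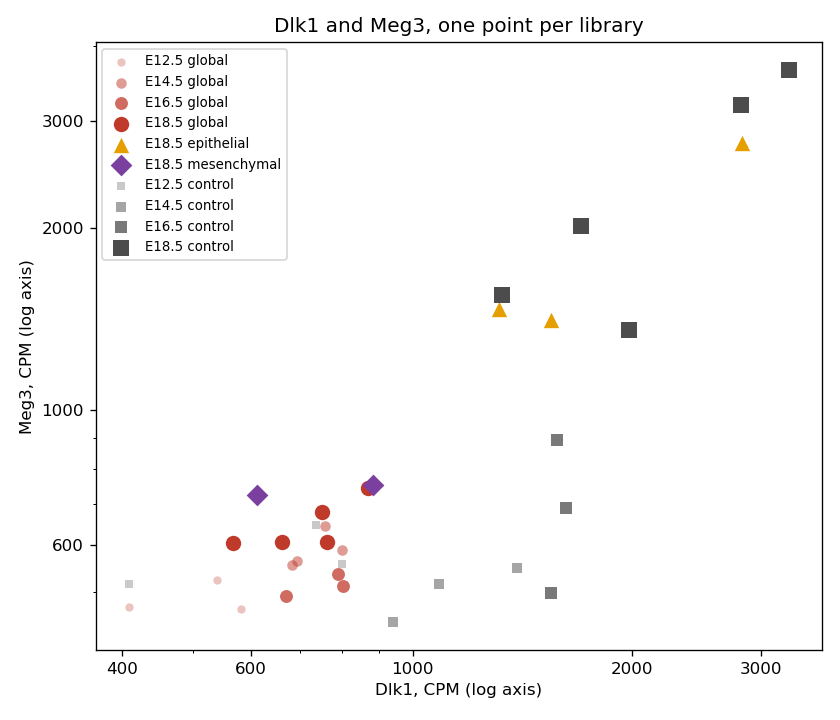
Dlk1 against Meg3 (CPM, both axes log), with 1 point per library, shaded and sized by embryonic day. Global and mesenchymal libraries of all days reach at most 752 CPM of Meg3 and 883 CPM of Dlk1, and the E18.5 control and epithelial libraries have at least 1313 CPM of Dlk1 and 1358 CPM of Meg3.

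Dlk1 and Meg3 were the pair of members from 1 cluster, and the plot of their levels by library shows both together. In control lungs Dlk1 averaged 2219 ± 807 CPM at E18.5 and 1582 ± 35.5 CPM at E16.5 (SD, n = 5 and 3). Meg3 averaged 2352 ± 1015 CPM at E18.5 and 693 ± 197 CPM at E16.5, a wider step. Their neighbours were read in the same comparisons. Rian and Mirg, maternally expressed noncoding RNAs downstream of Meg3, were lower in E18.5 global lungs (-0.94 ± 0.15 and -1.27 ± 0.20, adjusted p = 2.29e-06 and 2.70e-06, edgeR). Rian was at 353 ± 47.2 CPM in global and 680.3 ± 102 CPM in control lungs (SD, n = 5 each). Rtl1, a paternally expressed retrotransposon-derived gene, was also lower (-0.88 ± 0.36, adjusted p = 0.032, edgeR) and Dio3, which inactivates thyroid hormone, was higher at levels under 1 CPM (1.59 ± 0.60, adjusted p = 0.0215, edgeR). Without E18.5 controls 1 and 2 the folds were -0.82 for Rian, -1.16 for Mirg and 2.09 for Dio3, all called, and -0.11 for Rtl1, not called. In epithelial lungs Mirg was higher (0.72 ± 0.22, adjusted p = 0.0123, edgeR) and Rian stood at 0.01 ± 0.17, while without controls 1 and 2 Mirg was at 0.84 and Rtl1 was called higher too (1.12). In mesenchymal lungs Rian (-0.54) and Mirg (-1.21) were lower and Dio3 higher (1.79), and the Rian call was lost without the same 2 controls (-0.42).

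**Figure D5:**
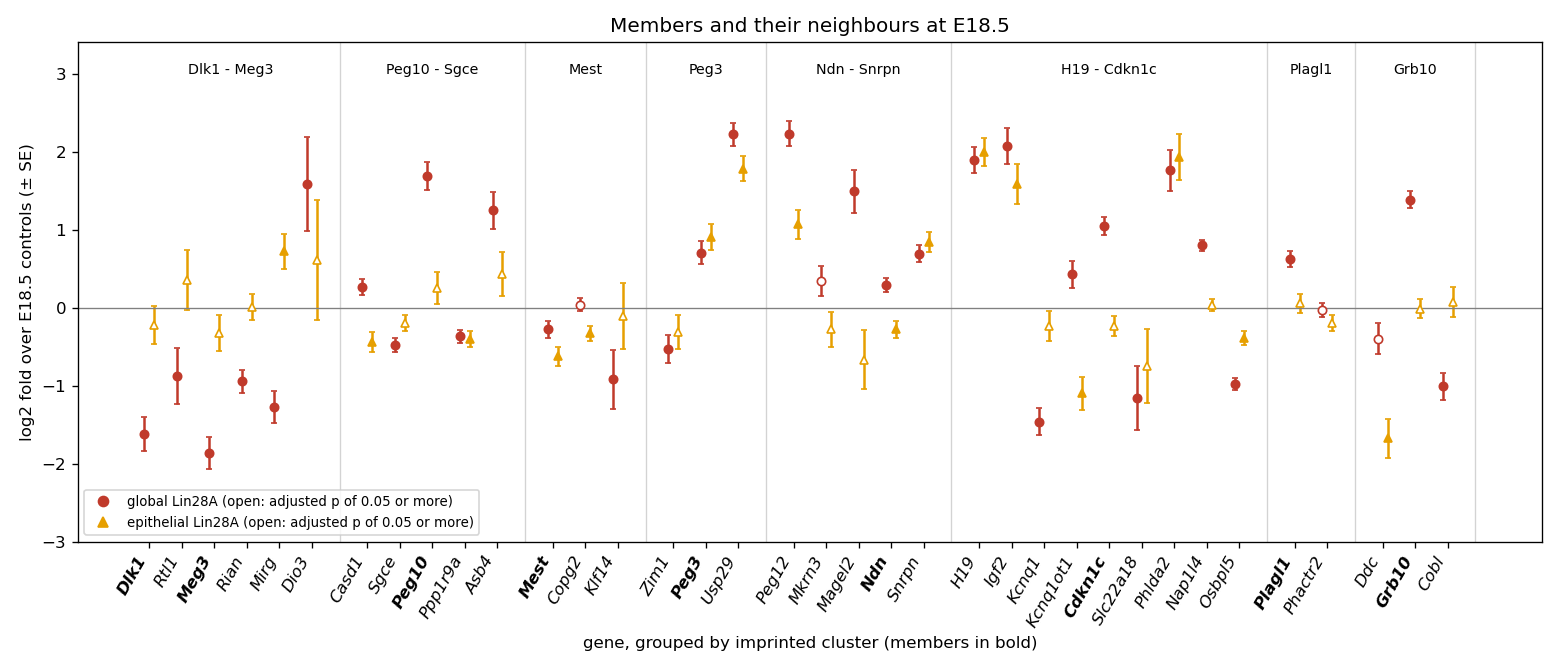
Log2 fold over E18.5 controls (± SE) of the members, in bold, and a fixed list of their neighbours (without Pon2, Pon3 and Tfpi2), grouped by imprinted cluster, in global and epithelial Lin28A lungs. Open symbols had an adjusted p of 0.05 or more. In global lungs Peg10 and Sgce lie on opposite sides of 0, while all plotted genes of the Ndn cluster lie above it.

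In several clusters neighbours did not share 1 direction, while Ndn and its listed neighbours all had folds above 0 in E18.5 global lungs. Beside Peg10 in E18.5 global lungs, Sgce, which starts next to it on the other strand, was lower (-0.48 ± 0.09), as was Ppp1r9a (-0.37 ± 0.09), while Asb4 (1.25 ± 0.23) and Casd1 (0.27 ± 0.10) were higher. Pon3 (-2.27 ± 0.17) and Pon2 (-1.08 ± 0.11), paraoxonase genes between Ppp1r9a and Asb4, and Tfpi2 (-0.78 ± 0.28), on the other side of Casd1, were also lower, and the Pon3 fold was the largest in size among the listed genes of this region. Asb4 was higher in global lungs from E14.5 (0.75 ± 0.24 at E14.5 and 1.46 ± 0.28 at E16.5), the days on which Peg10 was too, but the E14.5 call was lost without E14.5 global 4, E14.5 control 3 and E12.5 global 1 (0.72, adjusted p = 0.177, edgeR). Sgce was lower at E16.5 (-0.47). In mesenchymal lungs Asb4 (1.08) and Casd1 (0.40) were higher and Sgce (-0.41) and Ppp1r9a (-0.29) lower, as were Pon3 (-1.92), Pon2 (-0.88) and Tfpi2 (-1.09). In epithelial lungs Casd1 (-0.44) and Ppp1r9a (-0.40) were lower and Pon2 was higher (0.33). Without E18.5 controls 1 and 2, Casd1 was not called in global (0.15) or mesenchymal lungs (0.28), nor Ppp1r9a in mesenchymal (-0.26) or Pon2 in epithelial lungs (0.33). Beside Peg3, Usp29, which starts head to head with it, was higher (16.52 ± 1.19 CPM in global and 3.44 ± 1.04 CPM in control lungs, 2.22 ± 0.15, adjusted p = 2.41e-13, edgeR) and Zim1 was lower (-0.53 ± 0.18; -0.46 and not called without E18.5 controls 1 and 2). The annotated spans of Peg3 and Usp29 do not overlap. Usp29 was also higher in epithelial (1.78 ± 0.16) and mesenchymal (2.16 ± 0.18) lungs and in E16.5 global lungs (1.65 ± 0.18). Beside Mest, Klf14 was lower in global lungs (-0.92 ± 0.38), at 1.36 CPM against 2.53 CPM in controls. It was not called without E18.5 controls 1 and 2 (-0.65). Copg2 stood at 0.04 ± 0.08 in global lungs and was lower in epithelial lungs (-0.33 ± 0.10). Beside Ndn, Peg12 (2.23 ± 0.16), Magel2 (1.49 ± 0.28, with 1.33 CPM in controls) and Snrpn (0.69 ± 0.11) were higher in global lungs. Mkrn3 stood at 0.34 ± 0.19 there. Mkrn3 was called in epithelial lungs without controls 1 and 2 (-0.59). At E16.5 Peg12 (1.43) and Snrpn (0.64) were higher in global lungs, and at E18.5 Peg12 (2.01), Magel2 (1.0999) and Snrpn (0.39) were higher in mesenchymal lungs. Peg12 (1.07 ± 0.19) and Snrpn (0.84 ± 0.13) were higher in epithelial lungs too, where Ndn itself was lower.

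On the chromosome 7 arm that holds Cdkn1c, the growth factor gene Igf2 and the noncoding RNA gene H19 were higher in all 3 E18.5 Lin28A groups. H19 had 7630.2 ± 1439 CPM in global lungs (1.90 ± 0.17), 8185 ± 2571 CPM in epithelial lungs (1.998 ± 0.18) and 6795 ± 317 CPM in mesenchymal lungs (1.73 ± 0.20), against 2049 ± 563 CPM in the shared controls. Igf2 had 184 ± 58.1 CPM in global (2.07 ± 0.23), 131 ± 35.9 CPM in epithelial (1.58 ± 0.26) and 136 ± 15.5 CPM in mesenchymal lungs (1.64 ± 0.28), against 43.4 ± 16.8 CPM in controls. Without controls 1 and 2 the folds in global, epithelial and mesenchymal lungs were 1.74, 1.84 and 1.56 for H19 and 1.87, 1.38 and 1.43 for Igf2, all called. Igf2 and H19 thus rose in epithelial lungs, where Cdkn1c was not called. At E16.5 Igf2 was higher in global lungs (0.97 ± 0.29, adjusted p = 0.00847, edgeR) and H19 stood at 0.01 ± 0.21. Of the genes nearest to Cdkn1c, Phlda2, a maternally expressed growth restrainer of the placenta, was higher in global lungs (1.76 ± 0.27), as were Nap1l4 (0.80 ± 0.07) and the noncoding RNA Kcnq1ot1 (0.43 ± 0.17). The Phlda2 level was low, with 1.07 CPM in E18.5 controls. Kcnq1 (-1.46 ± 0.17), Slc22a18 (-1.16 ± 0.41) and Osbpl5 (-0.97 ± 0.08) were lower. Without controls 1 and 2 Slc22a18 was not called (-1.03) and Kcnq1ot1 was at 0.71. At E16.5 Nap1l4 (0.48) was higher and Slc22a18 (-1.82), Kcnq1 (-1.43) and Osbpl5 (-0.64) were lower in global lungs. In mesenchymal lungs Phlda2 (1.61) and Nap1l4 (0.79) were higher and Kcnq1 (-1.49) and Osbpl5 (-1.05) lower. In epithelial lungs Osbpl5 was lower (-0.39 ± 0.09), Phlda2 was higher (1.93 ± 0.29) and Kcnq1ot1 lower (-1.099 ± 0.21). Kcnq1ot1 lies within Kcnq1 on the other strand, and without the strand of counting their reads cannot be told apart. Beside Grb10, Cobl was lower in global (-1.01 ± 0.17) and mesenchymal (-1.096) lungs and Ddc stood at -0.40 ± 0.20 in global lungs (-0.57 and called without controls 1 and 2), while in epithelial lungs Ddc was lower (-1.67 ± 0.25). Phactr2, beside Plagl1, stood at -0.03 ± 0.09 in global lungs.

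A wider list of 73 other imprinted genes was read for the same comparisons. In all, 66 were tested, 4 (Slc22a2, Kcnk9, Th and Cdh15) were too low to test, and Zim2, Snurf and Ins2 were not analysed here. At E12.5 edgeR called 0 of the 66 and DESeq2 called 1, while 4 had an edgeR p under 0.05 before adjustment. Dcn alone was called there, lower, without E12.5 global 1 and both E14.5 libraries named above (-1.88) or without E12.5 global 1 and controls 2 and 3 (-1.87). At E14.5 global lungs had 3 higher and 6 lower (4.44% and 8.43% of all genes). At E16.5 there were 11 higher and 14 lower (17.0% and 20.1% of all genes). At E18.5 there were 21 higher and 28 lower (32.1% and 32.7% of all genes). Epithelial lungs had 17 higher and 8 lower (18.0% and 15.2% of all genes). Mesenchymal lungs had 19 higher and 23 lower (27.4% and 26.9% of all genes). At E14.5 the fit without E14.5 global 4, E14.5 control 3 and E12.5 global 1 called 4, all lower. Without E18.5 controls 1 and 2 there were 19 higher and 25 lower in global, 17 and 10 in epithelial, and 18 and 20 in mesenchymal lungs. These counts are to be read against the shares of all genes given above for each comparison. The list's median log2 fold was -0.12 in E18.5 global, -0.06 in epithelial and -0.12 in mesenchymal lungs, beside medians over all genes of -0.01, -0.02 and -0.02. It was -0.18, -0.06 and -0.18 with RLE scaling, and -0.034, -0.13 and -0.12 without E18.5 controls 1 and 2. Among genes outside the fixed neighbour list, the largest rises at E14.5 were those of Nap1l5 (1.21) and Ago2 (0.70), and the largest falls those of Ascl2 (-1.63), Tfpi2 (-1.38) and Ano1 (-0.79). Ascl2 (0.78 CPM in global and 2.43 CPM in control lungs) and Tfpi2 (0.79 and 2.04 CPM) were low, while Ano1 was at 53.2 and 91.8 CPM. Nap1l5, Ago2, Tfpi2 and Pon2 (-0.41) lost their calls without the E14.5 and E12.5 libraries named above, with folds of 1.02, 0.57, -1.03 and -0.32. Ascl2 lies between Igf2 and Kcnq1. The largest at E16.5 were Nap1l5 (1.47), the amino acid transporter gene Slc38a4 (1.145) and Dcn (1.08) upward, and Qpct (-1.94), Pon3 (-1.76) and Rasgrf1 (-1.70) downward. Nap1l5 (2.55 CPM in global and 0.91 CPM in control lungs) and Rasgrf1 (1.31 and 4.29 CPM) were low at E16.5. At E18.5 Slc38a4 (1.94), the sterol enzyme gene Dhcr7 (1.29) and Nnat (1.05) led upward in global lungs. Slc22a3 (-2.64, at 0.68 CPM against 4.29 CPM in controls), Qpct (-2.32) and Pon3 (-2.27) led downward. In mesenchymal lungs the same 6 genes led, at 1.87, 1.19, 0.93, -3.45, -2.61 and -1.92 in that order. In epithelial lungs Slc38a4 (2.41), Htr2a (1.73) and Bcl2l1 (1.20) led upward, and Airn (-1.02) and Igf2r (-0.32), which overlap on opposite strands, were the lower ones. Without controls 1 and 2 Igf2r was not called in epithelial (-0.32) or mesenchymal lungs (-0.30), nor H13 in epithelial (0.18) or Mcts2 in global lungs (0.34), while Dhcr7 (-0.57), Ano1 (-0.45) and Zrsr1 (0.38) were called in epithelial lungs.

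Across the 10 groups the members followed more than 1 course. Over the 36 pairs of members, Pearson's r of the group means of log2 CPM ran from -0.96 (Meg3 with Grb10) to 0.97 (Plagl1 with Peg10), with a median of 0.21 and 3 pairs above 0.9. The other pairs above 0.9 joined Ndn with Peg10 and with Plagl1. These points share libraries, and r is given as a description. Among 12151 genes with a mean of at least 5 CPM, those most like Grb10 in the 10 group means were Nmral1, Xrcc5 and Palb2 (r of 1.00 each after rounding), and those most like Peg10 were B4galt6, Fndc3c1 and Usp42 (0.99 each). Meg3 was most like Scgb3a1, C7 and Apold1 (0.98 to 0.99), and Dlk1 most like Ehd2, Cygb and Scara5 (0.99 each). Plagl1 was most like Drp2, Adprh and Zfp811 (0.99 each), and Ndn most like P3h3, Pkdcc and Slc26a7 (0.98 to 0.99). Peg3 was most like Tbpl1, Hdgfl2 and Ddx24 (0.97), Cdkn1c like Trmt10b, Ap4m1 and Fam185a (0.97), and Mest like Krcc1, Hacd4 and Bmp4 (0.95).

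By group mean, Dlk1 was highest in E18.5 controls, then epithelial lungs and E16.5 controls, all 3 overlapping, and lowest in E12.5 global lungs. Meg3 had the same leading pair, which stood apart from the other groups. Peg10 was highest in E12.5 and E14.5 global lungs and lowest in E18.5 controls and epithelial lungs, and the members of each pair overlapped. Grb10 had its 3 highest means in E12.5, E14.5 and E16.5 global lungs, which overlapped in that order, and its lowest in epithelial lungs and E18.5 controls, which overlapped. Cdkn1c was highest in E18.5 global lungs, which overlapped E12.5 controls, and lowest in epithelial lungs, which overlapped E18.5 controls. Peg3 and Plagl1 were highest in E12.5 global lungs, and lowest in E16.5 and in E18.5 controls, while Ndn was highest in E12.5 controls and lowest in epithelial lungs. Mest was highest in E16.5 controls and lowest in epithelial lungs, and its neighbouring groups overlapped except for E12.5 and E14.5 global lungs.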

How the data were processed

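Poly(A) RNA of mouse embryonic lungs, extracted with Trizol, was sequenced in 34 libraries, per the labels' protocols. The authors deposited raw read counts per gene, and the submitters' processing notes name bcl2fastq 2.17.1.14, cutadapt, STAR 2.4.2a, HTSeq 0.6.1p1, DESeq2 1.10.1 and GRCm38. A further deposited table holds a signal per gene, counts that the authors divided by size factors, per its values, and served only as an alternative for member levels. The strand of counting is not given in the sources used here.

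From the deposited counts, edgeR 4.0.16 (R 4.3.3, limma 3.58.1) fitted 1 mean for each of 10 groups to all libraries, after filterByExpr and TMM scaling, with 24 residual degrees of freedom. Its quasi-likelihood test gave 21 comparisons, adjusted by Benjamini and Hochberg over 18319 genes, with calls under 0.05. The fit was also run on simulated counts with few genes changed, all in 1 group. Many more genes were called in the E18.5 comparisons, so that run does not test the scaling there. CPM uses TMM library totals of 7147301 to 17624884 counts before scaling. RPKM divides by annotated exon length (GENCODE M21, which named all but 27 IDs). Alternatives were RLE scaling, no filter, only the compared groups, a replicate block, DESeq2 1.42.0, each library left out, and other-tissue libraries (E14.5 control 3, E14.5 global 4 and E12.5 global 1) left out; leaving out E18.5 controls 1 and 2, or the heart-high E12.5 controls 2 and 3 with E12.5 global 1, was added after the data were seen, as was any left-out library for the other imprinted genes. A 95% interval is the log2 fold ± the t quantile times SE.

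The members and gene lists were chosen with earlier results of these data known. Named genes were the members, fixed neighbours in their clusters, the 3 other listed imprinted genes with the largest called fold in each direction, and the 3 genes most like each member.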

Additional observations from a re-analysis of the deposited data

Results flagged for a closer look

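In E18.5 global lungs, Cdkn1c in library 5 (406 CPM) lay apart from the other 4 libraries (565 to 630.1 CPM). In the same group, Grb10 in library 2 (1977 CPM) lay apart from the other 4 (1724 to 1792 CPM). These were the 2 libraries flagged by the gap to their neighbours among 27 groups of 4 or 5 libraries tested, where chance flags about 1 in 20 groups. Leaving out either library kept both genes called higher in global lungs.

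The effect of global Lin28A differed between E18.5 and E16.5, by a test of the difference itself, for 3 of the 9 members, out of 27 such tests over 3 intervals. The log2 change of the effect was -1.43 for Meg3, 0.71 for Cdkn1c and 0.69 for Grb10. The Meg3 and Grb10 changes rest in part on E18.5 controls 1 and 2, as given above.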

How the results depend on the processing

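Of 1035 results over the planned settings other than leaving out 1 library, 1003 kept their side of the threshold, 16 lost a call, 16 gained one and 0 reversed. In all these counts a fold that was not called could change sign and still count as kept. The folds of Dlk1 and Meg3 in epithelial lungs did so without E18.5 controls 1 and 2. Over 1521 results with 1 library left out, 1472 were kept, 43 calls were lost and 6 gained. Of 45 results without E18.5 controls 1 and 2, a setting chosen after seeing the data, 43 were kept and 2 calls were lost, and of 45 without E12.5 controls 2 and 3 and E12.5 global 1, also chosen after seeing the data, 41 were kept and 4 calls were lost. Where calls changed, the cause was not tested.

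The number of members called in E14.5 global against control lungs was 2, 4 with only the compared groups fitted, and 1 without the other-tissue libraries. For control E14.5 against E12.5 it was 4, 2 without the other-tissue libraries, 1 without the heart-high E12.5 libraries, and 2 to 3 with 1 library left out. For global E14.5 against E12.5 it was 0, and 2 with only the compared groups. For the change of the global effect between E14.5 and E16.5 it was 0, 4 with only the compared groups, 1 with DESeq2 and 0 to 1 with 1 library left out. Calls over all genes for that change also rose, from 1442 to 3085 with only the compared groups, so the 4 members are to be read against that rise. For global E14.5 against control E12.5 it was 1, 2 with DESeq2, 0 without the heart-high E12.5 libraries and 0 to 1 with 1 library left out. For global E16.5 against control E14.5 it was 1, and 2 with only the compared groups. For global E18.5 against E16.5 it was 1, and 0 to 1 with 1 library left out. With 1 library left out, the count stayed at 4 to 6 in E16.5 global, 8 to 9 in E18.5 global, 2 to 4 in epithelial and 6 to 7 in mesenchymal against control lungs. Of the other imprinted genes at E12.5, DESeq2 called 1 and edgeR 0, or 1 without the other-tissue or the heart-high libraries, and at E14.5 edgeR called 9, or 4 without the other-tissue libraries.

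With plain library totals in place of TMM, the log2 ratio of control means, E18.5 over E12.5, was -0.060 for Mest (0.060 with TMM), -1.37 for Ndn (-1.24) and -1.07 for Cdkn1c (-0.95), so Mest changed sign. Per longest transcript, E12.5 control levels were 357 RPKM for Mest, 108 for Peg3, 197 for Plagl1, 39.4 for Meg3 and 392 for Grb10.

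The replicate numbers carry no stated pairing, and deviations of same-numbered libraries correlated from -0.15 to 0.22. With the number as a block within the day, the counts of members called in the 6 comparisons with controls were 0, 2, 5, 9, 2 and 7, where Mest at E16.5 (adjusted p = 0.0764, edgeR), Ndn in epithelial lungs and Mest between epithelial and mesenchymal lungs lost their calls. With the block across days, control E18.5 against E16.5 had 7 members called, global E16.5 against E14.5 had 3, and E18.5 global against E16.5 control had 6.

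Counts over all genes moved too. At E12.5 global against control, 42 genes were called, with 26 without a filter, 11 with only the compared groups, 374 without the other-tissue libraries, 26 with the block, 141 with DESeq2 and 8 to 358 with 1 library left out. At E14.5 there were 2357, with 745 without the other-tissue libraries, 1319 with the block and 1274 to 2283 with 1 library left out. Epithelial lungs had 6078, with 3469 when only the compared groups were fitted. Mesenchymal lungs had 9948, with 6550 to 10082 with 1 library left out. The change of the global effect between E16.5 and E18.5 had 1957, and 933 without E18.5 controls 1 and 2. Groups of 2 to 5 libraries limit what can be seen. The lowest count of any member in any library was 78.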

Other observations

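The wider imprinted list was also read between days and between Lin28A groups, and its counts are to be read against the shares of all genes. Of the 66 other imprinted genes tested, 8 were higher and 7 lower in control lungs at E14.5 against E12.5, 12 higher and 17 lower at E16.5 against E14.5, and 12 higher and 12 lower at E18.5 against E16.5 (edgeR's quasi-likelihood test, Benjamini-Hochberg adjustment). The shares of all genes in these control steps were 11.3% higher and 5.44% lower, 18.1% and 17.8%, and 17.1% and 19.1%. In global Lin28A lungs the same steps had 2 higher and 2 lower, 1 higher and 3 lower, and 1 higher and 3 lower. Of all genes, 4.62% were called in global lungs at E14.5 against E12.5. At E16.5 against E14.5, 3.93% were higher and 2.67% lower. At E18.5 against E16.5, 1123 of the 18319 genes tested were called, and 341 of these (1.86% of all genes) were lower. The change of the global effect between E14.5 and E16.5 was called for 9 of the 66, 6 upward and 3 downward, beside 7.87% of all genes. The change between E16.5 and E18.5 was called for 11, 5 upward and 6 downward, beside 10.7% of all genes. Global and mesenchymal lungs at E18.5 differed in 0 of the 66 by edgeR (0.0218% of all genes), and 2 had a p under 0.05 before adjustment. Global and epithelial lungs differed in 42, with 18 higher and 24 lower in global lungs, beside 31.3% and 31.8% of all genes.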
